A study of Mus musculus with 16 samples.

Results

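Imprinted protein-coding genes, whose messenger RNA is made mainly from the copy inherited from one parent, were examined as chromatin-bound RNAs in mouse embryonic stem cells (mESCs). The members were a list of 36 gene names grouped into 17 imprinted domains, and each was looked up by the RNA name given in the 2 tables of significant RNA–DNA pairs. Pairs were found for 23 of the 36 names, out of 9288 protein-coding RNA names in the Input table and 9606 in the H3K27me3-RADIP table. The label held for the names that were found, since all 8442 of their pairs were classed as protein-coding by the authors and all lay inside the annotated gene on its strand. Of the 36 names, 35 are protein-coding in the GENCODE M21 annotation and Peg13 is a non-coding RNA inside an intron of Trappc9.

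Genomic imprinting is set by DNA methylation that differs between the egg and the sperm and is kept through the early divisions of the embryo. Imprinted genes lie in clusters with a shared control region, and several clusters also make a long non-coding RNA, such as Kcnq1ot1 or Meg3, from the parental copy on which neighbouring coding genes are silent. The methylation of histone H3 at lysine 27 (H3K27me3), placed by Polycomb repressive complex 2 (PRC2), marks silent genes and is found on the repressed copy in several of these clusters.

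The libraries came from a single established mESC line, PGK12.1, grown with serum and leukemia inhibitory factor and fixed with 1% formaldehyde. In the Input group, RNA was ligated through a bridge adapter to nearby DNA in the nuclei and the chimeras were sequenced with no antibody step. In the H3K27me3-RADIP group, chimeras of the same kind were first pulled down with an antibody against H3K27me3. Both groups share the cell line, the culture and the ligation, and differ in the antibody step. By the paper's account Input also had more raw reads than H3K27me3-RADIP and a longer reversal of crosslinks. The effect of these differences on the listed pairs was not tested. The labels list 8 libraries for each group, more than the biological replicates the methods name, and how both correspond is not given in the sources used here. The authors merged them into 1 table per condition, so no value here has a replicate error. Intervals below cover counting error only, and the test of fold changes compares the 2 merged libraries, not the conditions. The sequence tags carry no record of the parent of origin here, so nothing below says which parental copy an RNA or a DNA site belonged to.

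The promoter windows of 5 members that stand out below are shown with their CpG positions, since DNA methylation sits mainly at CpG. Methylation was not measured here, and the windows were taken as promoters, not as the control regions of the clusters. Each window runs from 250 bases before to 50 bases after the annotated start, read along the gene, and was taken from RefSeq on build GRCm38.p6. Capitals mark CpG. The Usp29 window at chr7:6730333-6730632 overlaps the window of the divergent gene Peg3 and holds 17 CpG. The Ube3a window at chr7:59228500-59228799 holds 29 CpG, and the Osbpl5 window at chr7:143756959-143757258, on the minus strand, holds 16. These 3 genes had the largest fold changes in listed pairs among the 21 members found in both libraries. The Dlk1 window at chr12:109452573-109452872 holds 9 CpG and belongs to the member gene whose DNA tags differed most upward. The Dio3 window at chr12:110278980-110279279 holds 25 CpG and had the most DNA tags of any member window in H3K27me3-RADIP, 8 against 0 in Input. The Osbpl5 window had 6 Input and 0 H3K27me3-RADIP DNA tags, and the other 3 windows had at most 2 in either library.
Usp29: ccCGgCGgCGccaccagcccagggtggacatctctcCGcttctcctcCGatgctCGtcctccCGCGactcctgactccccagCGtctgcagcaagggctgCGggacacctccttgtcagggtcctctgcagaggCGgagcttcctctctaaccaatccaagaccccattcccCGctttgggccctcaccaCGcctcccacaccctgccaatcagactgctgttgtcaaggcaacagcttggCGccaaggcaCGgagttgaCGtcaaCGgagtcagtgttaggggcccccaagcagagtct
Ube3a: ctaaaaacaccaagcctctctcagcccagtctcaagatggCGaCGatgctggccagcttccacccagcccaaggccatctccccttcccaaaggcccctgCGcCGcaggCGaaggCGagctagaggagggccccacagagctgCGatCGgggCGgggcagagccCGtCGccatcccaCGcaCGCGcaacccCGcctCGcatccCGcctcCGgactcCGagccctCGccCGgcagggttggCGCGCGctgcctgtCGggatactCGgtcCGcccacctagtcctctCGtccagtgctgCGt
Osbpl5: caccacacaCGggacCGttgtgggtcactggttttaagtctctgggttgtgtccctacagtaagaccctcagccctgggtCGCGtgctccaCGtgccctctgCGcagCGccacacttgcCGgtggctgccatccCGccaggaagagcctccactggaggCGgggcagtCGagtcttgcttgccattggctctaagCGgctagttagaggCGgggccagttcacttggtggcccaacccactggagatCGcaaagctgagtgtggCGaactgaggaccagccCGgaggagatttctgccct
Dlk1: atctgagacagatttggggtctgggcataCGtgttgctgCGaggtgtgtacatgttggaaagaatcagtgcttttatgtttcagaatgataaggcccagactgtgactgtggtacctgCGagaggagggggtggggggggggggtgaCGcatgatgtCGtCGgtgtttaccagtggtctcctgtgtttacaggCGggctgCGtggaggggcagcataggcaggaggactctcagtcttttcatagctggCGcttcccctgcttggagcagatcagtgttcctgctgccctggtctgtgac
Dio3: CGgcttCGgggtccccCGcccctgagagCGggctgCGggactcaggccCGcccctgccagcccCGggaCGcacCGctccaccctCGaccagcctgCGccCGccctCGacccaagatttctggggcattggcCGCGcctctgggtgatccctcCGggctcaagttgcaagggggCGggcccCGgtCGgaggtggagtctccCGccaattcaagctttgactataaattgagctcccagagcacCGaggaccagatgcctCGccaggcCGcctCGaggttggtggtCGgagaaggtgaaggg

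RefSeq windows were matched for 28 of the 36 members, 45 windows in all. Their median was 17 CpG, against 7 over all 32851 windows in the reference table. The letters TGCCGC, the core sequence read by the imprint-keeping protein ZFP57, were searched on both strands and found in 11 of the 45 member windows, from 10 members, while 11.6% of all windows held them. The letters contain a CpG, some member windows overlap each other, and no background matched for CpG was counted. No enrichment is drawn from these shares. None of the 5 windows shown holds these letters. Another Osbpl5 window, at chr7:143740311-143740610, does hold them.

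There were 1305107 pairs in the Input table and 1415135 pairs in the other, of which 1261178 and 1359456 had a protein-coding RNA. Member RNAs gave 3996 pairs in Input, 0.317% of the protein-coding pairs, and 4446 pairs in H3K27me3-RADIP, 0.327%. Of the member pairs, 7.16% and 9.18% repeated the positions of another pair, which cannot be told from amplification copies because the reads carry no molecular identifiers. Of 13 mESC marker genes, 5 had pairs in both libraries, among them Esrrb with 2388 and 2500 pairs and Tet1 with 1302 and 1395, and none was called different. Pou5f1 and Nanog had no pairs. The fibroblast marker Fn1 had 272 and 209 pairs, and the other fibroblast and primitive endoderm markers had at most 41 in either library.

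A pair is listed only when its RNA and its 25-kb DNA bin passed the authors' interaction test, and no combination of a member RNA with a bin was listed with fewer than 8 pairs. A count of 0 is therefore an absence from the list and not an absence of pairs. A count of pairs does not separate more RNA from RNA ligated more often, and more cells with an RNA cannot be told apart from more RNA per cell. Of the 23 members found, 21 were in both tables, 0 in Input alone, and 2, Igf2 and Dlk1, in H3K27me3-RADIP alone. The share found in both, 91.3%, compares with 76.0% of the protein-coding names found in either table. The 13 members without a row were Snrpn, Magel2, Ndn, Zim1, Cdkn1c, Phlda2, Tssc4, Zrsr1, Commd1, Nnat, Dio3, Rtl1 and Peg13.

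Gene length differed between these sets. The 23 genes found had a median length of 68.2 kb, with a range of 10.5 to 471.6 kb, and the 13 absent genes had a median of 4.49 kb. None of the 9 members shorter than 5 kb had a row, and 6.26% of the 4153 annotated protein-coding genes of that class did. Of the 7 members of 100 kb or longer, 6 had rows, as did 90.1% of the 2492 genes of that class. The cell growth brake Cdkn1c, the placental growth regulator Phlda2, the thyroid hormone-inactivating enzyme Dio3 and the neuronal genes Ndn, Magel2 and Nnat are all in the short class.

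The long genes Snrpn and Commd1 were absent under their own name, and RNA tags in their intervals carried another. The interval of Snrpn, a gene of the Prader–Willi cluster for a splicing protein, held 47 Input and 21 H3K27me3-RADIP pairs on its strand named Gm38393. The interval of Commd1, which encodes a copper-handling protein, held 102 and 99 pairs on its strand named Commd1b, a gene model that overlaps it. How reads were divided between such overlapping models was not tested, so the absence of Snrpn and Commd1 is an absence of the name. In the Gnas interval the antisense transcript Gnasas1 gave 122 and 180 pairs, against 34 and 36 for Gnas itself. No Trappc9 RNA tag lay in Peg13, which is in the same orientation.

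**Figure D1:**
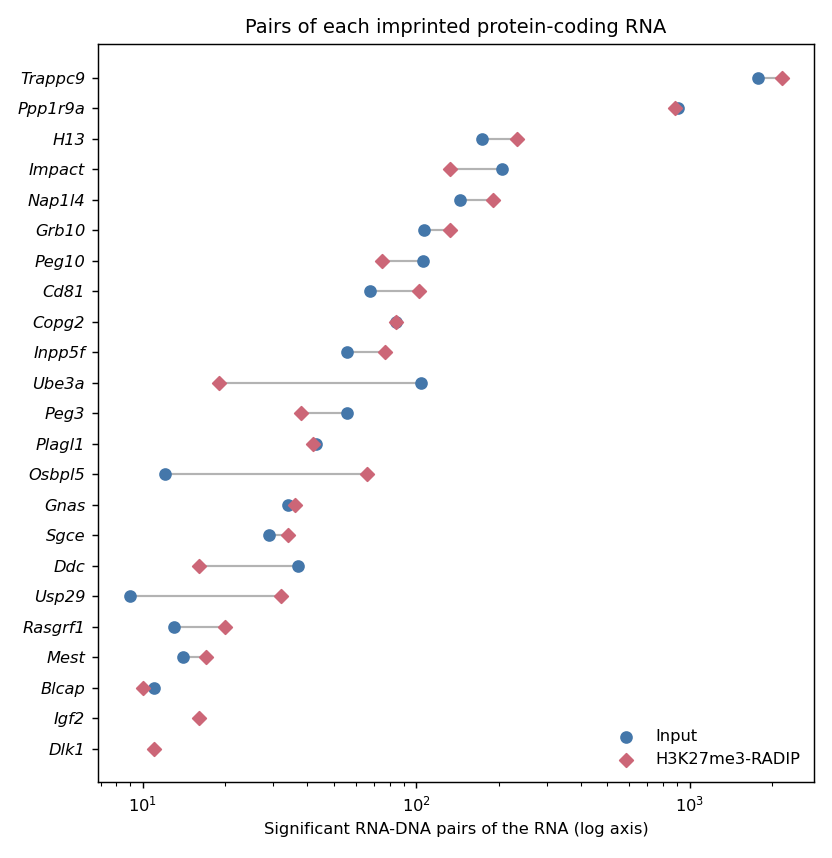
Significant RNA–DNA pairs of each of the 23 members found, on a log axis, with Input as circles and H3K27me3-RADIP as diamonds, each from 1 merged table. Trappc9 and Ppp1r9a stand apart from the rest, with at least 884 pairs in each library, and Igf2 and Dlk1 have a diamond only.

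The pairs were spread unevenly. Trappc9, a subunit of a complex that tethers transport vesicles, gave 1783 pairs in Input and 2176 in H3K27me3-RADIP. Ppp1r9a, a scaffold that places protein phosphatase at the actin skeleton of neurons, gave 906 and 884. These 2 RNAs held 2689 of the 3996 Input pairs and 3060 of the 4446 H3K27me3-RADIP pairs of all members. Both are long genes whose imprinted expression is known mainly from brain or placenta. The median member had 56 Input and 42 H3K27me3-RADIP pairs, against 33 and 30 for a protein-coding name overall.

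Of the other members with at least 50 pairs in a library, those that did not pass the limits given below were as follows. H13, an intramembrane peptidase, had 174 and 234 pairs in Input and H3K27me3-RADIP. The histone chaperone gene Nap1l4 had 144 and 191. Grb10, an adaptor that restrains insulin signalling, had 107 and 133. The retrotransposon-derived gene Peg10 had 106 and 75, and the zinc finger gene Peg3 had 56 and 38. The tetraspanin gene Cd81 had 68 and 102, the phosphatase gene Inpp5f 56 and 77, and Copg2, a coatomer subunit, 84 in both.

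Below 50 pairs were Plagl1, a zinc finger regulator of growth, with 43 and 42, and Sgce, a sarcoglycan, with 29 and 34. Rasgrf1, an exchange factor for Ras, had 13 and 20 pairs, the hydrolase-fold gene Mest 14 and 17, and Blcap 11 and 10.

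Fold changes were read after TMM scaling over the 8158 protein-coding names found in both tables, with an exact negative binomial test at an assumed coefficient of variation of 0.1. A name was called when its adjusted p was at most 0.1 and its log2 fold at least 0.5 in size. Of the 21 members tested, 5 (23.8%) were called, and the background was 14.5% of all names. Of the members, 2 were called higher in H3K27me3-RADIP, where the background was 6.77%, and 3 lower, where it was 7.69%. By the fold limit alone 9 of 21 members (42.9%) passed, against 42.0% of all names, which is close to the members' share. The median log2 fold was 0.20 over the members and -0.01 over all names. The calls rest on the assumed variation. At 0.2 only Osbpl5 and Ube3a were called, and at 0.4 none of the members and none of the 8158 names was.

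The calls also rest on bins listed in 1 library alone, which entered the counts through the library where they were high. When only the bins that both tables list for an RNA were counted, a setting chosen after seeing the data, 0 of the 20 members left were called, and 0.5% of 7806 names were. The folds below are thus folds in listed pairs, and no difference between the libraries is drawn from them.

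**Figure D2:**
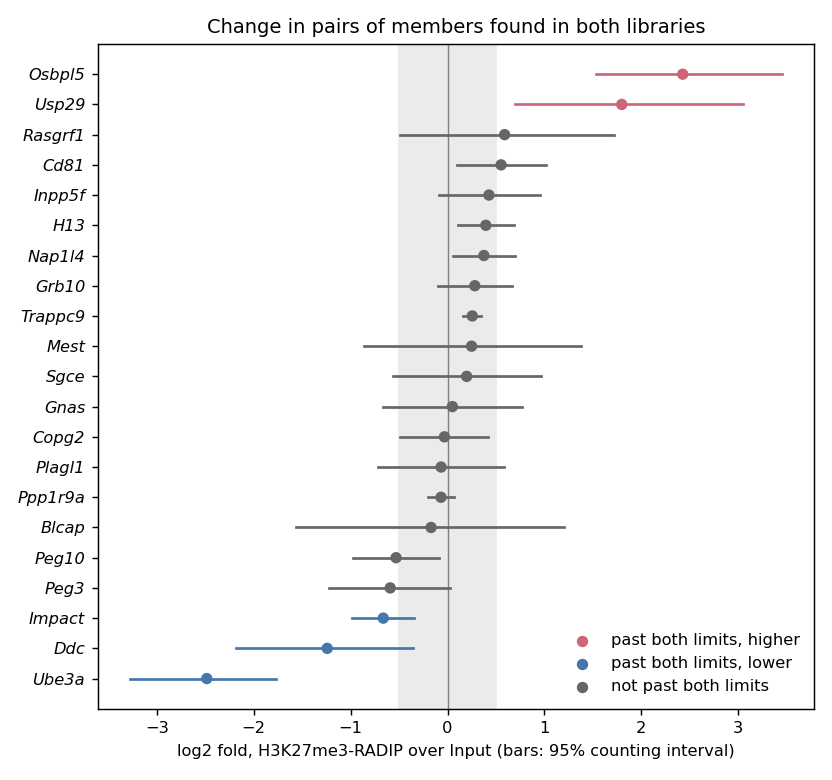
Log2 fold in pairs, H3K27me3-RADIP over Input, for the 21 members found in both libraries, with 95% counting intervals as bars and the band within 0.5 shaded. All listed pairs are counted, also those of bins listed in 1 library alone. Osbpl5 at 2.43 and Ube3a at -2.48 lie at the ends, and most other intervals cross or touch the band.

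Osbpl5, which encodes a lipid transfer protein of the endoplasmic reticulum, lies at chr7:143688762-143756985 in the Kcnq1 cluster (identifier ENSMUSG00000037606.18). Its RNA gave 12 Input pairs and 66 H3K27me3-RADIP pairs. The log2 fold in listed pairs was 2.43. The 12 Input pairs lay in 1 bin and the 66 H3K27me3-RADIP pairs in 4 bins, all overlapping the gene, and the Input bin was 1 of the 4. In that shared bin there were 12 and 15 pairs, a log2 fold of 0.37 that was not called. The other 51 H3K27me3-RADIP pairs lay in bins not listed in Input, so no test of the total is given.

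Usp29, a ubiquitin protease gene next to Peg3 at chr7:6730578-6967219, had 9 Input pairs and 32 H3K27me3-RADIP pairs. Its log2 fold in listed pairs was 1.80. The 9 Input pairs lay in 1 bin and the other 32 in 3 bins, with none shared, so the fold compares different bins and no test of it is given. Its divergent neighbour Peg3 had 56 and 38 pairs, a log2 fold of -0.59 with an interval of -1.23 to 0.03 that was not called. The 2 genes share a promoter region, and their difference from each other was not tested.

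Ube3a, the ubiquitin ligase whose maternal loss causes Angelman syndrome, lies at chr7:59228750-59311536. Its RNA gave 104 Input pairs and 19 H3K27me3-RADIP pairs, which is 5.60-fold fewer after scaling. The log2 fold in listed pairs was -2.48. The Input pairs filled 5 bins, 4 of them overlapping the gene and 1 past its end, and 2 of these were also listed in H3K27me3-RADIP. In those 2 bins there were 50 and 19 pairs, a log2 fold of -1.34 with an adjusted p of 0.23 in the exact negative binomial test, which was not called. The other 54 Input pairs lay in bins not listed in H3K27me3-RADIP, so no test of the total is given. Of all 8158 names, 0.233% had a log2 fold in listed pairs that was lower or the same. This rank counts the bins listed in 1 library alone as well, so nothing is drawn from it.

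The other 2 members called lower were close to the limit. Ddc, the enzyme that makes dopamine and serotonin from their precursors, had 37 Input pairs and 16 H3K27me3-RADIP pairs. The log2 fold in listed pairs was -1.24. Impact, a regulator of protein synthesis under stress, had 206 Input pairs and 133 H3K27me3-RADIP pairs. Its log2 fold in listed pairs was -0.66. Ddc was not listed in both tables among pairs of q at most 0.01. Neither was called when repeated positions were counted once, at log2 folds of -1.16 and -0.55. In bins listed in both libraries Ddc had 9 and 8 pairs and Impact 183 and 125, log2 folds of -0.12 and -0.50 that were not called.

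A further 4 members passed the fold limit without passing the test. Cd81 at 0.55 and Rasgrf1 at 0.59 were above it, and Peg10 at -0.53 and Peg3 at -0.59 were below it. Cd81 was called once only pairs of q at most 0.01 were kept, at a log2 fold of 0.86, while in the same setting Rasgrf1 went to -0.14. In bins listed in both libraries Cd81 was at 0.27, Rasgrf1 at -0.65, Peg10 at -0.01 and Peg3 at -0.16. The remaining 12 members lay within 0.5, with 8 above 0 and 4 below. Trappc9, with the most pairs, had a log2 fold of 0.26 and a narrow counting interval of 0.16 to 0.35, and was not called.

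Igf2 and Dlk1 were listed in H3K27me3-RADIP alone. Igf2 is the growth factor of the paternal copy in the distal chromosome 7 cluster, and Dlk1 a membrane ligand related to those of the Notch receptor. Igf2 had 16 pairs and Dlk1 had 11. Since no member combination under 8 pairs was listed, Input may hold pairs that are not in the table, and no fold is given. All pairs of each lay in 1 bin centred inside the gene. Among protein-coding names in general, 1448 were listed in H3K27me3-RADIP alone and 1130 in Input alone, so presence in 1 library was frequent.

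All 8442 member pairs joined RNA and DNA of the same chromosome. Over protein-coding RNAs, 37 Input pairs and 341 H3K27me3-RADIP pairs joined different chromosomes. The distance between the RNA tag and the DNA tag had a median of 73.5 kb for the Input pairs of members and 95.4 kb for their H3K27me3-RADIP pairs, and the ratio was 1.30. Over all protein-coding RNAs it went from 44.4 to 68.8 kb, a ratio of 1.55. The share of member pairs over 100 kb was 45.3% (Wilson interval 43.8 to 46.9) in Input and 48.9% (47.5 to 50.4) in H3K27me3-RADIP. The difference of 3.62 percentage points, with an interval of 1.49 to 5.75, was smaller than the 7.29 points over all protein-coding RNAs. These values include bins listed in 1 library alone. Over member combinations listed in both libraries the shares were 43.6% and 45.7%, a difference of 2.08 points, and the ratio of medians was 1.18. The same was not computed over all protein-coding RNAs.

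The share over 100 kb rested on Trappc9 and Ppp1r9a. Without them the share over 100 kb was 12.4% (10.7 to 14.3) in Input and 12.9% (11.3 to 14.8) in H3K27me3-RADIP, and the intervals overlap. The ratio of medians did not rest on them, at 1.34 without these RNAs, from 11.9 to 16.0 kb. With each of 20 members given the same weight the difference fell to 0.62 points. Taken RNA by RNA, H3K27me3-RADIP had the longer median distance for 15 of 20 members with at least 10 pairs in both libraries (75%), and for 69.5% of 6916 protein-coding names. The median of the per-RNA ratios was 1.38 for members and 1.34 for all, so the members did not stand apart in this measure.

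**Figure D3:**
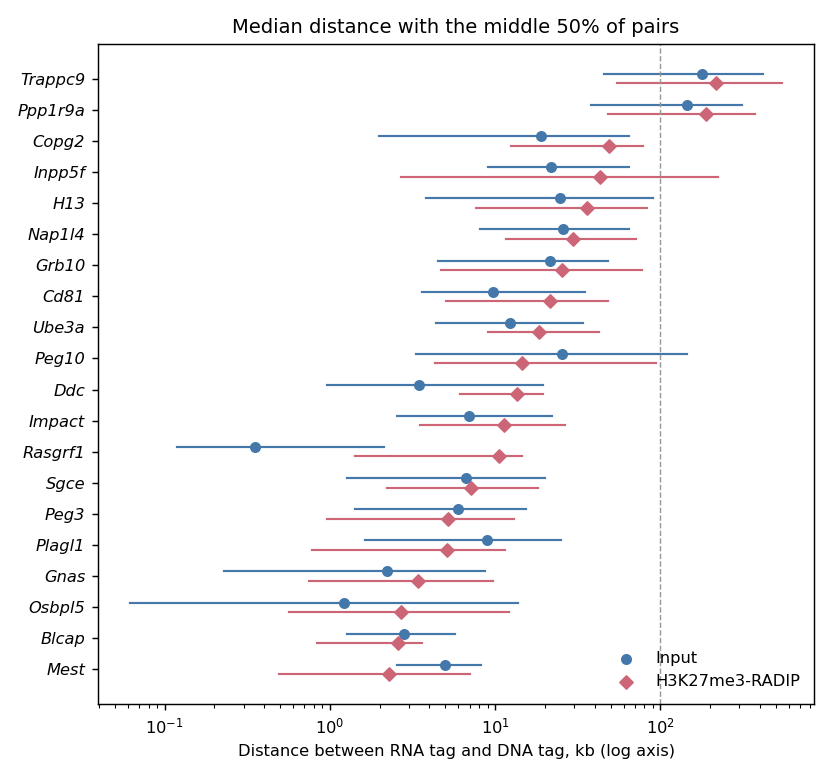
Median distance between RNA tag and DNA tag per member, with the middle 50% of pairs as bars, on a log axis in kb, for the 20 members with at least 10 pairs in both libraries. Only Trappc9 and Ppp1r9a have medians past the dashed line at 100 kb, and 15 of the 20 diamonds (H3K27me3-RADIP) lie to the right of their circle (Input).

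Among single members the shift varied. Inpp5f had 10.7% of its pairs over 100 kb in Input (5.0 to 21.5) and 40.3% in H3K27me3-RADIP (30.0 to 51.4), the widest gap among the 21 members found in both. Its bins outside the gene were not shared between the libraries. For Copg2 the median went from 18.9 to 48.7 kb, while its share over 100 kb was 15.5% in both libraries. For Cd81 the median went from 9.66 to 21.5 kb, while its share over 100 kb was 11.8% and then 3.92%. Of the Copg2 bins, 6 in Input and 7 in H3K27me3-RADIP, 4 were shared, and of the Cd81 bins, 4 and 6, 2 were shared. Rasgrf1 went from 0.35 to 10.5 kb, on 13 and 20 pairs, and a second bin overlapping the gene was listed in H3K27me3-RADIP. In the other direction, Peg10 went from 25.3 to 14.5 kb, and 3 of its 4 bins downstream of the gene were listed in Input alone. Mest, Plagl1, Peg3 and Blcap also had shorter medians in H3K27me3-RADIP.

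Trappc9 RNA, from chr15:72589620-73061204 on the minus strand, met DNA over 68 bins in Input and 86 in H3K27me3-RADIP, with 63 shared. Its median distance was 177 kb and then 218 kb. All 20 bins overlapping the gene were listed in both libraries, with 1103 and 1215 pairs. The 23 bins listed in H3K27me3-RADIP alone lay outside, 16 upstream and 7 downstream, and 5 were listed in Input alone. Over all protein-coding RNAs, 76.7% of the Input combinations and 67.1% of the H3K27me3-RADIP ones were listed in both, so bins of 1 library were frequent. Upstream of the gene start by more than 1 Mb there were 0 bins in Input and 9 in H3K27me3-RADIP, with 82 pairs. Downstream by more than 1 Mb from the start there were 9 and 13 bins, with 99 and 164 pairs. Pairs over 1 Mb numbered 23 in Input and 174 in H3K27me3-RADIP. The farthest Input pair spanned 1391 kb and the farthest H3K27me3-RADIP pair 13782 kb, in a bin of 8 pairs at chr15:59125001-59150000.

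The bins of H3K27me3-RADIP alone were thin, with 8 to 17 pairs each, next to the minimum of 8 for a listed combination. A bin just short of the authors' limit in Input is not in the table, so each such bin by itself does not show a gain. Trappc9 RNA reached 3 imprinted neighbours of its domain. On Kcnk9, a potassium channel gene, it had 50 and 60 pairs, on Ago2, an effector of small RNAs, 66 in both, and on the short gene Chrac1 8 and 4. On Ptk2, a kinase of cell adhesion, it had 100 in Input and 75 in H3K27me3-RADIP. On Dennd3 it had 21 and 45, on Fam135b 8 and 29, and on Mroh5 0 and 23.

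Ppp1r9a RNA, from chr6:4902917-5165661, met DNA over 41 bins in Input and 46 in H3K27me3-RADIP, with 35 shared. The 11 bins overlapping the gene were all shared and held 448 and 360 pairs. Upstream the bins went from 15 to 22 and the pairs from 256 to 332, and downstream the bins went from 15 to 13. Of the upstream bins, 14 were shared, 1 was listed in Input alone and 8 in H3K27me3-RADIP alone, with 8 to 15 pairs each. Downstream 10 were shared, 5 were listed in Input alone and 3 in H3K27me3-RADIP alone. The added upstream pairs thus include pairs of bins not listed in Input, and no gain is drawn from them. The median distance was 144 kb and then 189 kb, and 0 and 19 pairs were over 1 Mb. The bins more than 1 Mb upstream of the gene start were listed in H3K27me3-RADIP alone. They held 8 pairs each, the fewest listed for a member combination. Both distance values thus include bins not listed in Input, and no longer reach is drawn from them. Upstream lies the imprinted Peg10 cluster, where Ppp1r9a RNA had 53 and 54 pairs on Sgce and 12 and 13 on Peg10. Of other imprinted neighbours, it had 25 and 37 pairs on Asb4, 25 and 11 on Casd1, 24 and 15 on Pon3, 18 and 20 on Pon2, and 0 and 4 on Calcr.

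**Figure D4:**
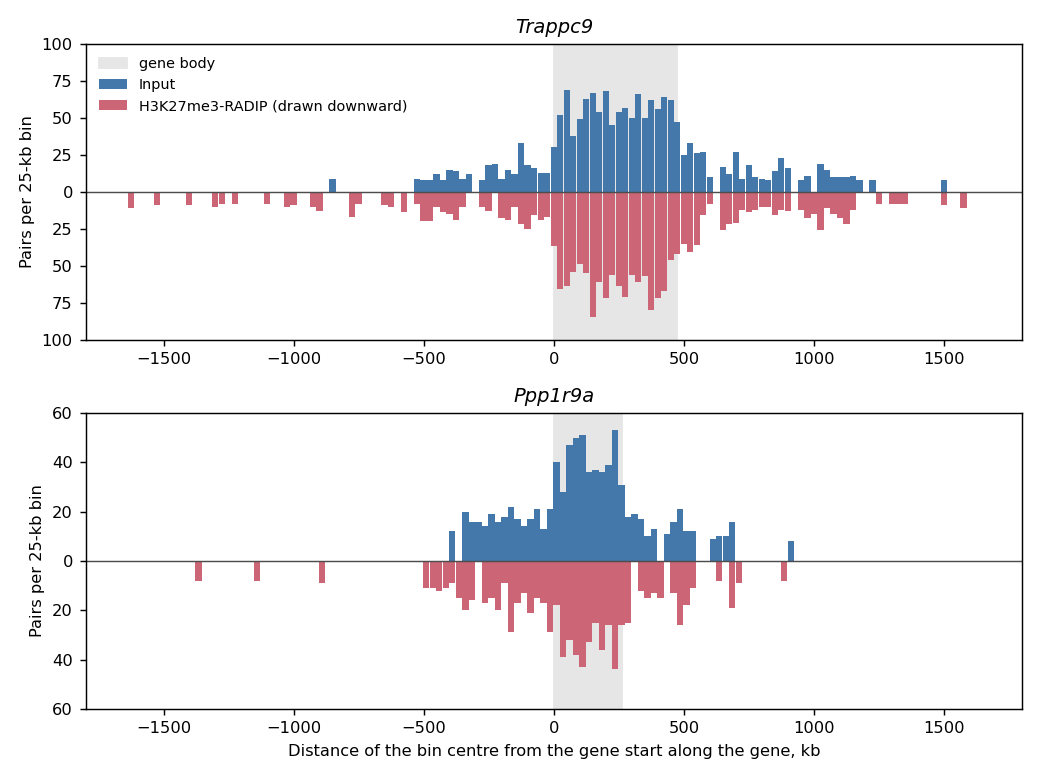
Pairs per 25-kb bin along the Trappc9 and Ppp1r9a genes, with Input drawn upward, H3K27me3-RADIP downward, and the gene body shaded, against the distance of the bin centre from the gene start in kb. Upstream by more than 1000 kb Trappc9 has no Input bin and 9 H3K27me3-RADIP bins, and downstream it has 9 and 13. Its single bin at 13924 kb downstream is outside the plot.

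Over all members, 187 combinations of an RNA with a bin were listed in Input and 222 in H3K27me3-RADIP, with 150 in common. These are 80.2% of the Input list and 67.6% of the H3K27me3-RADIP list, against 76.7% and 67.1% for all protein-coding RNAs. Of the member pairs, 57.6% (56.1 to 59.2) had the DNA tag inside the gene of the RNA in Input and 52.0% (50.6 to 53.5) in H3K27me3-RADIP. The difference of -5.59 points had an interval of -7.70 to -3.46 and was -8.28 points over all protein-coding RNAs. These shares include combinations not listed in both libraries. For Trappc9 all 20 bins overlapping the gene were shared. Its 23 bins listed in H3K27me3-RADIP alone and its 5 listed in Input alone lay outside the gene. The in-gene share was not computed over combinations listed in both libraries, so no shift out of the gene is drawn from the difference. Usp29 and Rasgrf1 had all pairs inside the gene in both libraries. Nap1l4, in a dense part of the Kcnq1 cluster, had 36.1% and 32.5% inside.

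Most RNA tags were intronic. The intronic share of member pairs was 89.9% (88.9 to 90.8) in Input and 90.4% (89.5 to 91.3) in H3K27me3-RADIP. The difference of 0.58 points had an interval of -0.69 to 1.86, and over all protein-coding RNAs it was 0.73. Peg3 had the lowest intronic share of the members found in both, with 46.4% (34.0 to 59.3) and 39.5% (25.6 to 55.3). Peg10 had 65.1% and 65.3%, and Ube3a 67.3% and 63.2%. Trappc9 had 95.2% and 95.6%. Peg3 and Peg10 are genes of 26.5 and 13.2 kb, and Trappc9 is the longest member at 471.6 kb. Other short genes had high shares, Cd81 at 15.2 kb with 94.1% and 88.2%, and Blcap at 14.9 kb with 90.9% and 90.0%. A relation of the intronic share to gene length was not tested.

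Member genes were also read as DNA targets, whatever RNA was paired with them. DNA tags inside each annotated protein-coding gene were counted and compared for the 10611 genes with tags in both libraries and at least 20 in all. Of the 27 member genes compared, 6 (22.2%) had a log2 fold of 1 or more, and the background was 14.3% of all genes. For 2 genes (7.41%) -1 or less, and the background was 10.9%. The median log2 fold was 0.09 over member genes and -0.01 over all. Genes of a cluster share RNAs and bins and so are not independent of each other. These counts, too, include combinations listed in 1 library alone, so the tags in combinations listed in both libraries are given beside them.

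Dlk1 had 10 Input and 69 H3K27me3-RADIP DNA tags, a log2 fold in listed tags of 2.78 (1.81 to 3.90). In combinations listed in both libraries it had 10 and 37. In Input the tags came from 2 RNAs, Rian with 8 and Meg3 with 2, both non-coding RNAs of the same cluster. In H3K27me3-RADIP they came from 8 RNAs, led by Rian with 22 and Meg3 with 15, and Dlk1 RNA itself gave 9. Of the 8 RNAs, 6 were listed there in H3K27me3-RADIP alone. The retrotransposon-derived gene Rtl1 of the same cluster had 53 and 58 tags, and Dio3 had 4 and 9.

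Igf2 had 30 Input and 88 H3K27me3-RADIP DNA tags, a log2 fold of 1.54 (0.93 to 2.19), and 24 and 54 in combinations listed in both libraries. Kcnq1ot1, the non-coding RNA that silences the neighbouring Kcnq1 cluster, gave all of the latter. Igf2 RNA gave 0 and 14. Cdkn1c, whose own RNA had no pairs, had 9 and 30 DNA tags, a log2 fold of 1.73 (0.62 to 2.99), and 9 and 25 in combinations listed in both. Kcnq1ot1 gave 9 and 21 of all its tags. The short gene Phlda2 had 5 and 12, of which Kcnq1ot1 gave 3 and 9.

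Osbpl5 had 176 and 367 DNA tags, a log2 fold of 1.05 (0.79 to 1.32), and 167 and 272 in combinations listed in both. Kcnq1ot1 gave 113 in Input and 201 in H3K27me3-RADIP, and Cars, a neighbouring gene for a transfer RNA ligase, gave 32 and 76. Osbpl5 RNA gave 12 and 60. Over the member genes of the Kcnq1 cluster Kcnq1ot1 gave 195 of 387 tags (50.4%) in Input and 303 of 634 (47.8%) in H3K27me3-RADIP. Kcnq1ot1 itself had 5350 Input pairs and 11139 H3K27me3-RADIP pairs, and whether its pairs on these genes moved with that total was not tested. Nap1l4 and Cd81 in the same cluster had 131 and 156, and 56 and 60, DNA tags.

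The Ube3a gene had 89 Input and 18 H3K27me3-RADIP DNA tags, a log2 fold of -2.31 (-3.13 to -1.57), and 47 and 18 in combinations listed in both. Its own RNA made up 80 of the first and all 18 of the second. Copg2 had 127 and 57, a log2 fold of -1.16 (-1.64 to -0.70), and 72 and 57 in combinations listed in both. Of all its tags Copg2 RNA gave 68 and 48, and Exoc4, a gene for a vesicle-tethering subunit, gave 39 and 7. Usp29 had 12 and 36 tags and Rasgrf1 21 and 45, where Morf4l1 RNA gave 8 and 25. In combinations listed in both libraries these were 3 and 4 for Usp29 and 21 and 17 for Rasgrf1. Magel2 and Ndn had 0 tags in both libraries.

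**Figure D5:**
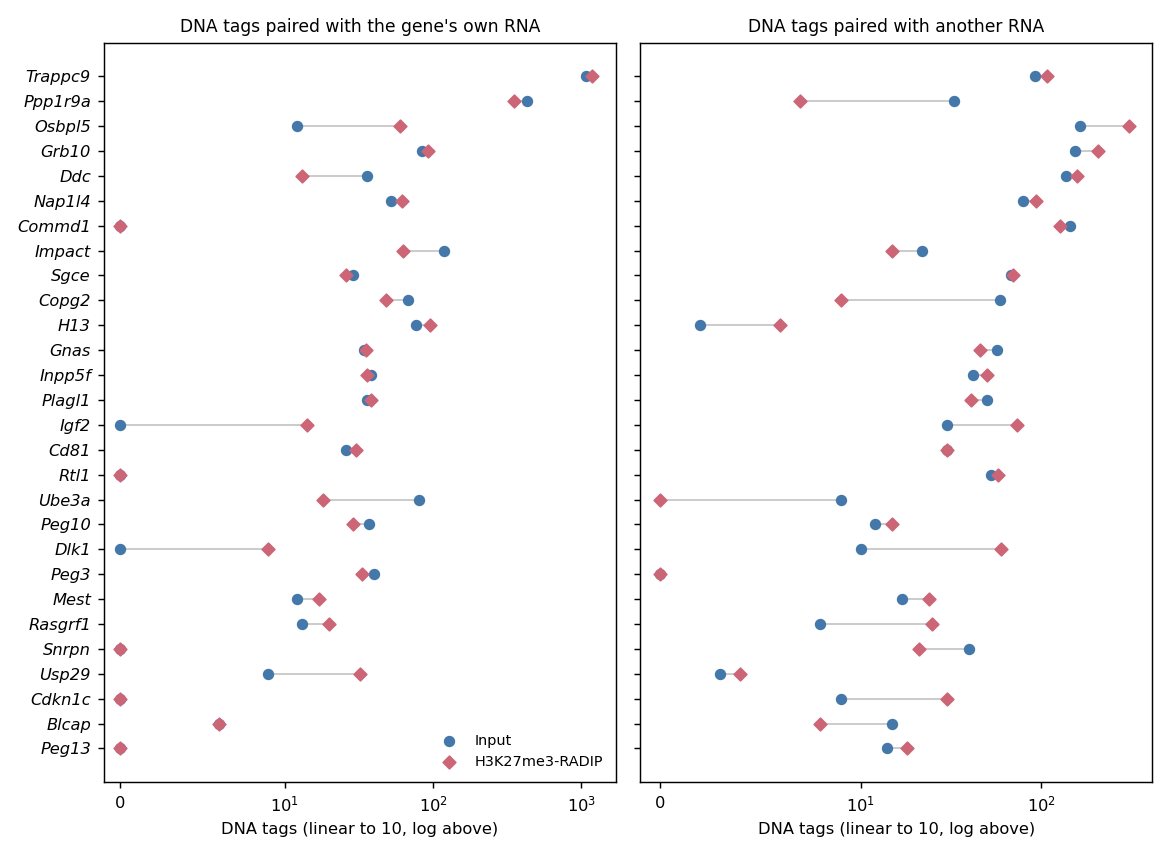
DNA tags inside each member gene with at least 20 tags in the 2 libraries together, split into tags paired with the gene's own RNA (left) and with another RNA (right), on axes linear to 10 and logarithmic above. Dlk1, Igf2 and Cdkn1c move to the right in H3K27me3-RADIP through other RNAs, and Ube3a moves to the left through its own.

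Member RNAs met other member genes only within their own domain, over 15 such RNA and gene combinations. On the neighbouring gene Ddc, Grb10 RNA had 0 listed Input pairs and 25 H3K27me3-RADIP pairs, from bins of 9 to 11 pairs, near the fewest listed. Over the same gene, Ddc RNA itself had 36 and 13 pairs and the RNA of Cobl, an actin regulator on the other side of Grb10, had 90 and 104. Tns3, a gene for a focal adhesion protein, gave the other 48 and 29. The Ddc gene had 174 and 171 DNA tags in all, a log2 fold of -0.03. Peg3 RNA had 10 pairs on Zim1 in Input and 0 in H3K27me3-RADIP. Over Grb10 and Ddc together Cobl RNA was the most frequent, with 219 and 278 tags.

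On Plagl1 and Gnas a neighbouring RNA gave the most tags as well. Utrn RNA gave 50 of the 86 Input tags on Plagl1 and 41 of 79 in H3K27me3-RADIP. Gnasas1 gave 46 on Gnas in both libraries. On Inpp5f its own RNA came first, with 38 and 36 tags, and Fgfr2 RNA second, with 29 and 31. On the genes of the Zrsr1 and Commd1 domain Commd1b RNA came first, with 73 and 65 tags, and B3gnt2 RNA second, with 55 and 44.

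A further 55 imprinted genes that are not members were counted as a list. Pairs were found for 29 in Input and 31 in H3K27me3-RADIP, and 22 were protein-coding names found in both. Of these 22, 4 were called higher, where the background was 6.77%, and 0 lower, where it was 7.69%. The potassium channel gene Kcnq1, which Kcnq1ot1 overlaps on the opposite strand, had 101 and 281 pairs (log2 fold 1.44), the placental transporter gene Slc22a3 14 and 43 (1.59), the chloride channel gene Ano1 39 and 100 (1.33), and Begain 21 and 54 (1.33). In bins listed in both libraries Kcnq1 was still called, with 76 and 157 pairs, and the other 3 were not, at log2 folds of 1.15 for Begain, 0.95 for Slc22a3 and 0.29 for Ano1. A further 6 coding genes of the list were in 1 table alone and were not tested, Cntn3 with 34 pairs and Calcr with 9 in Input, and Ins2 with 18, Slc22a18 with 15, and Tspan32 and Kcnk9 with 8 each in H3K27me3-RADIP. The median log2 fold of the 22 was 0.16. Of the non-coding RNAs of the clusters, Rian gave 887 and 1046 pairs, Meg3 597 and 740, and Airn 68 and 173, and Igf2r, the coding gene that Airn overlaps, gave 121 and 137. These counts are not per length.

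Of 16 factors known to set or keep imprints, 14 had pairs in both libraries, with 0 called higher and 3 lower, against backgrounds of 6.77% and 7.69%. Eed, a core subunit of PRC2, had 169 and 63 pairs (log2 fold -1.46). The chromatin regulators Arid4a, with 134 and 65 pairs, and Arid4b, with 306 and 188, had log2 folds of -1.08 and -0.74. Zfp57 had 29 and 23 pairs, Dnmt1, the maintenance methyltransferase, 208 and 227, and Trim28 32 and 28, and these were not called. In bins listed in both libraries Eed had 119 and 63 pairs (log2 fold -0.87), Arid4a 104 and 65 (-0.63) and Arid4b 253 and 171 (-0.51), and none of these 3 was called. The median over the 14 was -0.28.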

How the data were processed

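RNA–DNA interactions were measured in PGK12.1 mESCs with and without H3K27me3 immunoprecipitation. The authors separated RNA and DNA tags, aligned them to mm10 (the submitters' processing notes name BWA 0.7.15-r1140, STAR 2.5.0a and CASAVA 1.8.2), kept pairs with a mapping quality of 37, merged the libraries of a condition, and modelled interactions in 25-kb bins. The deposited tables list pairs with a p-value, not used here, and a q-value, by which the authors filtered them at 0.1. Tag positions, gene names, classes and regions are also the authors' own. No column was left without a condition.

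Here each line was counted as a pair (Python 3.11.15, numpy 2.4.6, pandas 2.3.3, scipy 1.17.1, matplotlib 3.10.9). Distances run between tag centres. Scaling was TMM (trims of 30% and 5%) and the 2-sided exact negative binomial test was written for this work, tested on simulated data, with Benjamini-Hochberg adjustment over all protein-coding names found in both tables. The coefficient of variation of 0.1 was assumed, since merged tables hold no replicates. Shares have 95% Wilson intervals and folds exact binomial ones. Gene positions came from GENCODE M21 on the same build, an older release than the authors used.

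The members, the lists and the tests were chosen with earlier results of these data known. Every member with a pair was named, and values in full were given for members with at least 50 pairs in a library, with at least 20 pairs in 1 library alone, or past both limits. Of other RNAs, those among the 3 with the most tags on the member genes of a domain were named, and further neighbours, lists and DNA-side values were chosen after their values were seen.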

Additional observations from a re-analysis of the deposited data

How the results depend on the processing

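The number of members called moved with the test, and so did the share of all names called. It was 5 in the main setting, where 14.5% of all names were called. It was 4 with pairs of q at most 0.01 (17.4% of names), 3 with repeated positions counted once (13.7%), and 2 and 0 at assumed coefficients of variation of 0.2 and 0.4 (1.32% and 0). At a coefficient of 0 it was 7 (24.7%), and by the fold limit alone 9 (42.0%). Over combinations listed in both libraries, chosen after seeing the data, it was 0 (0.5%). Library totals (15.4%), TMM over all RNAs (14.5%) and gene identifiers each gave 5, and RNAs with at least 50 pairs gave 4 (19.8%). Of 225 recomputed member folds, 195 kept their direction and their side of the limits, 15 lost a call, 7 gained one, and 8, none of them called, changed direction. The settings of the coefficient of variation and the fold limit alone reuse the main fold, so no direction could change in them. Their folds are part of the 225, and the fold limit alone adds calls by leaving out the test. With pairs of q at most 0.01 the log2 fold went from 0.59 to -0.14 for Rasgrf1, from 0.20 to -0.71 for Sgce and from -0.03 to 0.16 for Copg2, and with library totals from 0.05 to -0.026 for Gnas. Over combinations listed in both libraries Rasgrf1 was at -0.65, Sgce at -0.64, Inpp5f at -0.060 and Plagl1 at 0.019, and the cause was not tested. Giving each member the same weight moved the difference in pairs over 100 kb to 0.62 percentage points and that of the intronic share to -1.81 points, on 20 members, and without Trappc9 the 2 were 1.5 and -0.12. The other alternatives left the long-range share between 2.08 and 4.74 points, the ratio of medians between 1.18 and 1.52, the share of shared bins between 64.0% and 70.5% and the in-gene difference between -6.29 and -5.28 points. The in-gene difference was not recomputed over combinations listed in both libraries. The ratio of medians measured from the gene edge has no value, since both medians were 0. No paired analysis was possible because the authors merged the replicates into 1 table per condition. Depth limits the members with few pairs most, since a combination under 8 pairs is not listed.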
